A study of Mus musculus with 7 samples.

Results

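Expression of 43 genes of glycolysis and the hypoxia response was examined in growth plates of 7 F1 mice, in total and separately for the B6 and the CAST allele. The genes were chosen by their symbols, as glycolytic enzymes, glucose and lactate transporters, pyruvate dehydrogenase kinases, and regulators and targets of the hypoxia response. The choice used no measured value as a criterion, but was made with earlier results of these data known. Each symbol matched 1 of the 43346 genes in the count files. Of the 43 genes, 42 are autosomal and Pgk1 is X-linked. All 43 had at least 10 counts in every mouse, so no gene was lost to the filter on low counts.

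The 7 mice were males aged 21 d from a cross between the inbred strain C57BL/6J (B6) and the wild-derived inbred strain CAST/EiJ (CAST), and formed 1 condition with no treatment arm. Each mouse carried 1 B6 and 1 CAST copy of every autosomal gene and 1 X chromosome. Which strain supplied the mothers is not stated in the sources used here, but a male has his X from his mother. X-linked counts were 90.2% to 91.6% B6, which points to B6 mothers. Total RNA came from whole growth plates cut from both ends of the tibia, so a library can hold adjoining tissue beside cartilage. The allele comparison served the study as a search for candidate genes in Feml2, a chromosome 9 region linked to femur length in which Adpgk and Pkm lie.

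Growth plate cartilage has no blood vessels, and its chondrocytes make much of their ATP by converting glucose to lactate. When oxygen is low, the alpha subunits HIF-1 alpha and HIF-2 alpha escape hydroxylation by the EGLN prolyl hydroxylases and capture by the VHL ubiquitin ligase, pair with ARNT and bind DNA at a short core motif. Glycolytic enzymes, glucose and lactate transporters, Vegfa and some of the EGLN enzymes themselves are among the classical targets. Loss of HIF-1 alpha leads to death of chondrocytes in the centre of the growth plate.

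Totals ranged from 14098019 to 37849667 counts per mouse, with a median of 27603769, and the 43 genes took 0.633% to 0.739% of them. These totals are above the sequencing depth given in the study's methods, so a fragment may have been counted more than once, and the counts cannot be taken as numbers of independent reads. All 8 chondrocyte markers were counted in every mouse, with a summed level of 57218 to 104735 CPM (counts per 1000000 library counts, after TMM scaling of the libraries), led by Col2a1 at a mean of 53736. Markers of other tissues were present in every mouse too. The bone collagen gene Col1a1 averaged 46540 CPM, the sum of 9 fast skeletal muscle markers ran from 4678 to 9431, and that of 8 erythroid markers from 8089 to 19626. Fewer cells of a type and less RNA per cell cannot be told apart in such libraries.

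Adpgk encodes an ADP-dependent glucokinase, which phosphorylates glucose at the expense of ADP rather than ATP. The gene lies on the plus strand of chromosome 9 (GRCm38/mm10) from 59291558 to 59324052. A single-base difference between the strains, A59314743G (the base of B6, the position on chromosome 9, the base of CAST), falls in exon 7. It changes the protein at T318A of the 496 annotated codons of the principal transcript. The 63 coding bases around it are shown for both alleles because Adpgk is the member of the group that both lies in Feml2 and differed between alleles in the test described further on. Capitals mark the codon that differs.
Adpgk, B6 allele: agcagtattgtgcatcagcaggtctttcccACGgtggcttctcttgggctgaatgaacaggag
Adpgk, CAST allele: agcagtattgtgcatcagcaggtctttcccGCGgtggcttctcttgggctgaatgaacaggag

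Hypoxia-inducible factors bind the core letters ACGTG or GCGTG, and these letters were searched on both strands in the 250 bases before each gene start listed by RefSeq (GRCm38.p6). A palindromic CACGTG counts once on each strand. Of 57 promoters of 39 of the 43 genes, 45 (78.9%) held a match and 42.1% held at least 2, while 38.6% of all 32851 promoters held a match and 16.7% held at least 2. GC content moved with this difference, at 60.6% in the promoters of the 43 genes and 53.2% in all promoters, and its part in the difference was not tested. By role, a match was present in 8 of 10 promoters of hypoxia targets, in 6 of 7 of hypoxia regulators, and in 31 of 40 of enzymes, transporters and kinases. Promoters of Slc2a3, Epas1, Bnip3l and Ndrg1 were not in the table. The 60-base windows below show where matches lie close together in a lactate enzyme, an enzyme on the X chromosome and a hypoxia target. Capitals mark the matched letters or their reverse complement. A match is a description of the letters and not of binding, which was not measured.
Ldha chr7:46845715-46845774 (plus strand): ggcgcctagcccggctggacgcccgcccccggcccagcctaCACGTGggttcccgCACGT
Pgk1 chrX:106186920-106186979 (plus strand): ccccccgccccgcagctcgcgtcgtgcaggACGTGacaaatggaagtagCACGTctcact
Bnip3 chr7:138909594-138909653 (minus strand): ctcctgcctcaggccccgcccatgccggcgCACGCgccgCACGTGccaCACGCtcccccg

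Levels were compared between genes as TMM-scaled CPM per kb of exon. They spanned from 0.681 for Car9 to 305 for Aldoa, with a median of 11.98 over the 43 genes. The highest levels belonged to genes of the steps from aldolase to lactate dehydrogenase. Aldoa, the aldolase of muscle and most other tissues, ranged over the 7 mice from 254 through a median of 298 (mouse 2) to 363 CPM per kb (mean 305 ± 44.7 SD, n = 7). Mice 8 and 1 were highest for Aldoa and lay apart from the other 5. Pkm, which encodes the pyruvate kinase that makes ATP in the last step, ranged from 178 through 213 to 306 (mean 221 ± 41.8), with mouse 4 highest and mouse 1 lowest. Ldha, the lactate dehydrogenase subunit that favours lactate formation, followed the same order of mice, from 176 through 208 to 289.7 (mean 213 ± 37.5). Gapdh, Tpi1, Pgam1, Eno3, Pgk1 and Eno1 came next, with means between 92.0 and 200.02.

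**Figure D1:**
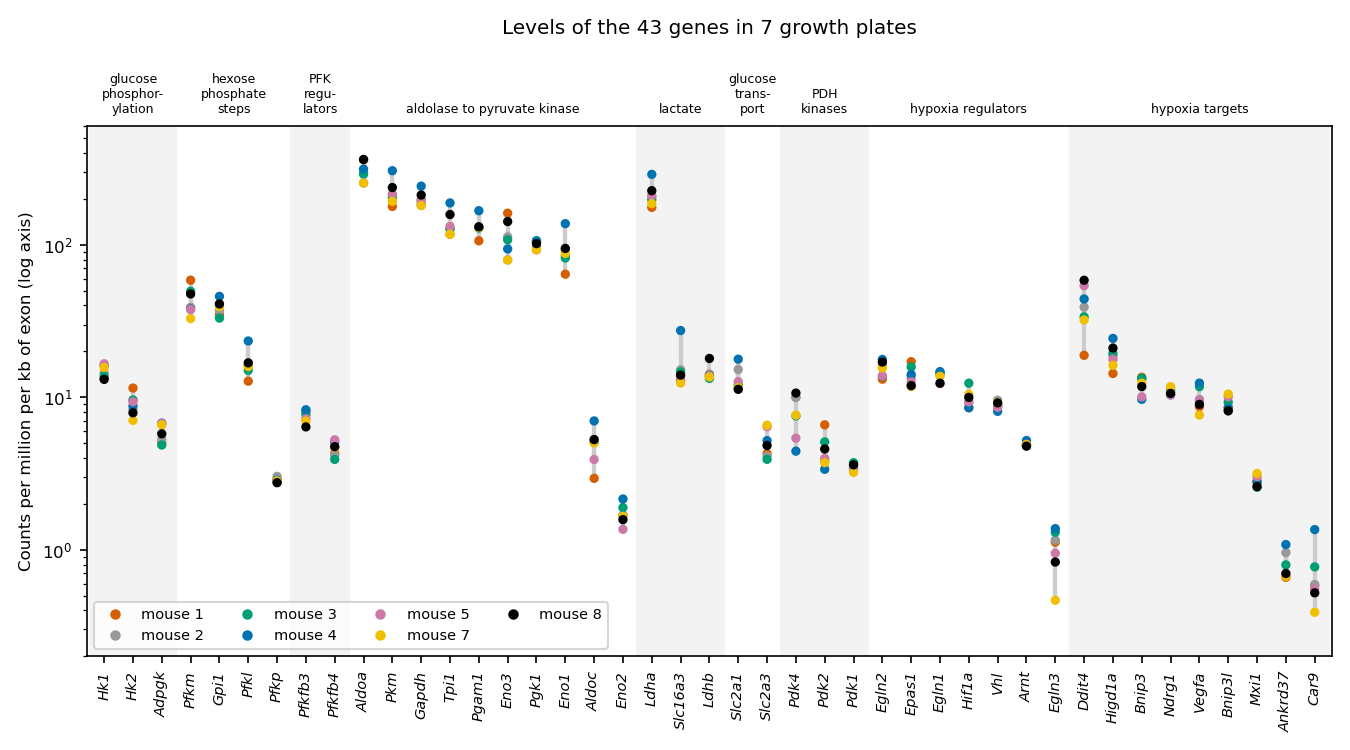
Level of each of the 43 genes in each of the 7 mice, in TMM-scaled CPM per kb of exon on a log axis, with 1 point per mouse, genes grouped by role and ordered by mean level within each role. Aldoa (mean 305), Pkm (221) and Ldha (213) stand at the top, and Egln3 (1.03), Ankrd37 (0.792) and Car9 (0.681) at the bottom.

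The entry of glucose and its first phosphorylations were at lower levels. Slc2a1, the basal glucose transporter GLUT1, averaged 13.1 ± 2.45 CPM per kb, and Slc2a3, the high-affinity transporter GLUT3, 5.04 ± 1.08. Of the enzymes that make glucose 6-phosphate, Hk1 averaged 14.7 ± 1.41, Hk2 8.93 ± 1.42 and Adpgk 5.87 ± 0.831. The order of Hk2 and Adpgk depended on the length used. Per kb of longest transcript Adpgk averaged 10.9 and Hk2 9.67, and with no length scaling 56.4 and 53.3 CPM. Glucose phosphate isomerase, encoded by Gpi1, averaged 38.9 ± 4.28. The PFKFB enzymes set the level of fructose 2,6-bisphosphate, the activator of phosphofructokinase, and Pfkfb3 averaged 7.53 ± 0.693 against 4.59 ± 0.492 for Pfkfb4. Pyruvate dehydrogenase kinases, which hold pyruvate back from oxidation in the mitochondria, averaged 7.95 ± 2.41 for Pdk4, 4.45 ± 1.10 for Pdk2 and 3.49 ± 0.174 for Pdk1.

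The hypoxia regulators lay in the middle of the range. Epas1, which encodes HIF-2 alpha, averaged 13.8 ± 2.01 CPM per kb and Hif1a 9.78 ± 1.34, with the partner subunit gene Arnt at 4.92 ± 0.144 and Vhl at 8.88 ± 0.490. Arnt varied least of the 43 genes, with a coefficient of variation of 2.93% over the mice. Among the prolyl hydroxylases, Egln2 averaged 15.3 ± 1.77 and Egln1 13.7 ± 1.02, whereas Egln3 ranged from 0.466 (mouse 7) through 1.12 (mouse 1) to 1.38 (mouse 4). Of the targets, Ddit4, an inhibitor of mTORC1 that responds to several stresses, was highest at 40.04 ± 13.6, and Higd1a, a small mitochondrial protein gene, followed at 18.8 ± 3.26. The mitophagy receptor gene Bnip3 averaged 11.98 ± 1.56, Ndrg1 10.9 ± 0.539, the angiogenic factor gene Vegfa 9.81 ± 1.69, Bnip3l 9.03 ± 0.951, and Mxi1, a MYC antagonist, 2.82 ± 0.213. The lowest were Ankrd37, from 0.660 through 0.698 to 1.08, and Car9, which encodes the pH-regulating carbonic anhydrase IX, from 0.389 through 0.583 to 1.36. With TMM scaling mouse 4 was highest for Egln3, Ankrd37 and Car9, and Car9 varied most of the 43 genes (coefficient of variation 46.7%). The median coefficient of variation was 14.6% over the 43 genes and 13.5% over the 15111 genes that reached 10 counts in each mouse.

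Several steps are served by more than 1 gene, and neighbouring isozymes were compared within each mouse by their level per kb, in 15 pairs. In 13 of the 15 pairs the higher gene differed from the lower one by more than the spread over mice (sign-flip permutation test of the 7 log2 ratios, exact and two-sided, Benjamini-Hochberg adjusted over 15 pairs). The adjusted p was 0.0213 for the 11 pairs in which all 7 mice went the same way, from a raw exact permutation p of 0.0156, which is the smallest that 7 mice allow. Aldoa exceeded Aldoc, the aldolase of brain, by 63.2-fold, and Eno1 exceeded Eno2, the neuronal enolase, by 53.0-fold. Ldha exceeded Ldhb, the subunit of oxidative tissues, by 14.7-fold, and Egln1 exceeded Egln3 by 14.03-fold. Smaller differences separated Pfkl from Pfkp (5.73-fold), Slc2a1 from Slc2a3 (2.62-fold), Pfkm from Pfkl (2.60-fold), Pdk4 from Pdk2 (1.75-fold), Hk1 from Hk2 (1.66-fold), Pfkfb3 from Pfkfb4 (1.64-fold) and Epas1 from Hif1a (1.41-fold).

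Pdk2 over Pdk1 (1.25-fold) and Bnip3 over Bnip3l (1.32-fold) held in 6 of 7 mice, with an adjusted p of 0.0361 in the same exact permutation test. Both of these orders turned around when counts were not divided by length, with log2 ratios of -0.98 and -0.37. The 2 pairs that did not pass were Egln2 over Egln1, with a log2 ratio of 0.15 ± 0.19 (range -0.11 to 0.46, adjusted exact permutation p = 0.100), and Eno3 over Eno1. For the enolases the log2 ratio was 0.26 ± 0.63 (range -0.55 to 1.33, adjusted exact permutation p = 0.313), and Eno3 was the higher gene in 4 of 7 mice. The order of the enolases depended on the length used, with a log2 ratio of -0.998 per kb of longest transcript and of -1.37 with no length scaling. With the counts of Eno1b, a near-identical copy of Eno1 described below, added to Eno1 the ratio was -0.10 ± 0.61.

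The balance within the enolase and phosphofructokinase families varied widely between mice, and shares within a mouse do not depend on the scaling of the library. Pfkm and Eno3 encode the muscle forms, Pfkl the liver form and Eno1 the form of most other tissues. Eno3 made up 40.2% of the enolase level in mouse 4, 56.3% in the median mouse (mouse 3) and 71.0% in mouse 1. Pfkm made up 59.2% of the phosphofructokinase level in mouse 4, 67.2% in mouse 2 as the median, and 78.9% in mouse 1. The same pair of mice stood at the ends of the ratio of tissue markers, which was 4.99 fast muscle marker counts per 100 chondrocyte marker counts in mouse 4, a median of 8.18 in mouse 7, and 16.3 in mouse 1. All 9 muscle markers were counted in every mouse. The muscle marker sum alone was lowest in mouse 7 (4678 CPM), against 5226 CPM in mouse 4, whose chondrocyte marker sum was the highest. With TMM scaling the levels of Eno3 and Pfkm were also lowest in mouse 7, and those of Eno1 and Pfkl were highest in mouse 4. Mouse 8, with 14.3 muscle counts per 100 chondrocyte counts, had the second highest Eno3 share at 59.6% and the third highest Pfkm share at 70.9%, after 73.5% in mouse 3. The part of muscle tissue in the isozyme shares was not tested.

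**Figure D2:**
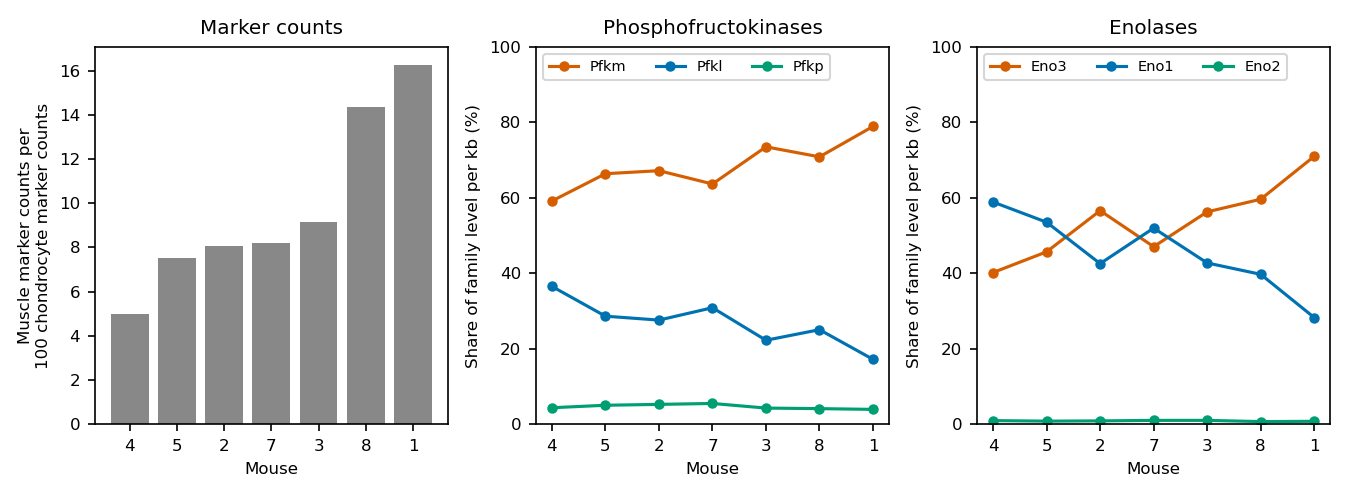
Left, counts of 9 fast muscle markers per 100 counts of 8 chondrocyte markers in each mouse, with mice in ascending order, the same order in all panels. Centre and right, share of each gene in the summed level per kb of the 3 phosphofructokinases and the 3 enolases in each mouse. Eno3 was 40.2% of the enolases in mouse 4 and 71.0% in mouse 1.

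The mouse with the highest level depended on the scaling of the libraries. With TMM scaling mouse 4 was the highest for 22 of the 43 genes (51.2%), against 18.5% of the 15111 genes with 10 or more counts in each mouse. With the deposited totals as library sizes mouse 1 was the highest for the most genes, 15 (34.9% against 28.7%), and mouse 4 for 12 (27.9% against 4.88%). Mouse 4 was highest for 14 genes (32.6% against 6.80%) and mouse 1 for 10 (23.3% against 18.9%) with totals from which the abundant structural RNAs Rn7s1, Rn7s2 and Rn7sk were left out. Under all 3 scalings mouse 4 was highest for 12 genes, which were the glycolytic enzyme genes Pfkl, Aldoc, Tpi1, Pgam1, Eno1, Pkm and Ldha, the transporter genes Slc16a3 and Slc2a1, and the targets Ankrd37, Car9 and Higd1a. Mouse 1 was highest under all 3 for Hk2, Pfkm, Eno3, Pdk2, Epas1 and Bnip3. Mouse 4 also had the highest chondrocyte marker sum, 104735 CPM, where the other 6 mice had 57218 to 80181. Of the 8 markers, 5 were highest in mouse 4, and the sum was led by Col2a1, with a mean of 53736 CPM. The part of cartilage content in these levels was not tested.

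Slc16a3, which encodes the lactate exporter MCT4, ranged from 65.9 through a median of 74.3 to 146 CPM. Mouse 4 alone was above 80.5. Pfkl ranged from 85.1 through 107 to 156 CPM, and the other 6 mice reached 112. Eno1 ranged from 345 through 472 to 740.5 CPM and Pgam1, the phosphoglycerate mutase gene, from 211 through 259 to 332, again with mouse 4 highest and mouse 1 lowest. Car9 ranged from 0.896 through 1.34 to 3.12 CPM, and the highest of the other mice was at 1.78. Ldhb went another way and ranged from 20.9 through 21.7 to 28.2 CPM, with mouse 8 alone above 22.2.

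For the allele comparison, counts of the CAST allele were set against those of the B6 allele over the 7 mice with edgeR's likelihood-ratio test, with calls made at an FDR (Benjamini-Hochberg, over all 20020 tested genes) under 0.20. Of the 42 autosomal genes of the group, 10 (23.8%) were called, beside 33.1% of all 19101 tested autosomal genes and 34.3% of those that reached 10 counts in each mouse. The called genes higher on CAST were 7 of the 42, Eno2, Ankrd37, Aldoc, Bnip3l, Pfkfb4, Pgam1 and Ndrg1, beside 16.6% of all tested autosomal genes. Those higher on B6 were 3 of the 42, Adpgk, Eno1 and Vhl, beside 16.4% of all tested autosomal genes. Of all 6320 called autosomal genes, 3179 were higher on CAST and 3141 on B6. At an FDR under 0.05 there were 6 of 42, against 21.8% of all. The median log2 fold change (CAST over B6) was 0.06 over the 42 genes and 0.015 over all autosomal genes, and the median size without sign was 0.13 and 0.21.

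Both alleles of a gene come from the same mouse, and a fit that took the mouse as replicate block called 27 of the 42 genes, beside 44.4% of autosomal genes overall. Ankrd37 was no longer called (FDR = 0.283). The 18 genes added were Hk1, Pfkl, Pfkfb3, Aldoa, Gapdh, Ldhb, Slc2a1, Pdk4 and Egln1, higher on CAST, and Gpi1, Pfkm, Eno3, Pkm, Slc2a3, Pdk1, Egln3, Vegfa and Car9, higher on B6. In the quasi-likelihood test with the same block 25 of the 42 were called, beside 39.4% of autosomal genes, and Pdk1 (FDR = 0.222) and Ldhb (FDR = 0.226) were not. The log2 fold changes of the 18 genes without the block were between -0.53 (Car9) and 0.22 (Slc2a1). By plain direction, 13 of the 42 genes had the same allele higher in all 7 mice, beside 22.8% of all autosomal genes. Of these 13, 8 were called without the block, and the others were Pfkfb3, Gapdh, Pfkm, Pkm and Vegfa.

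**Figure D3:**
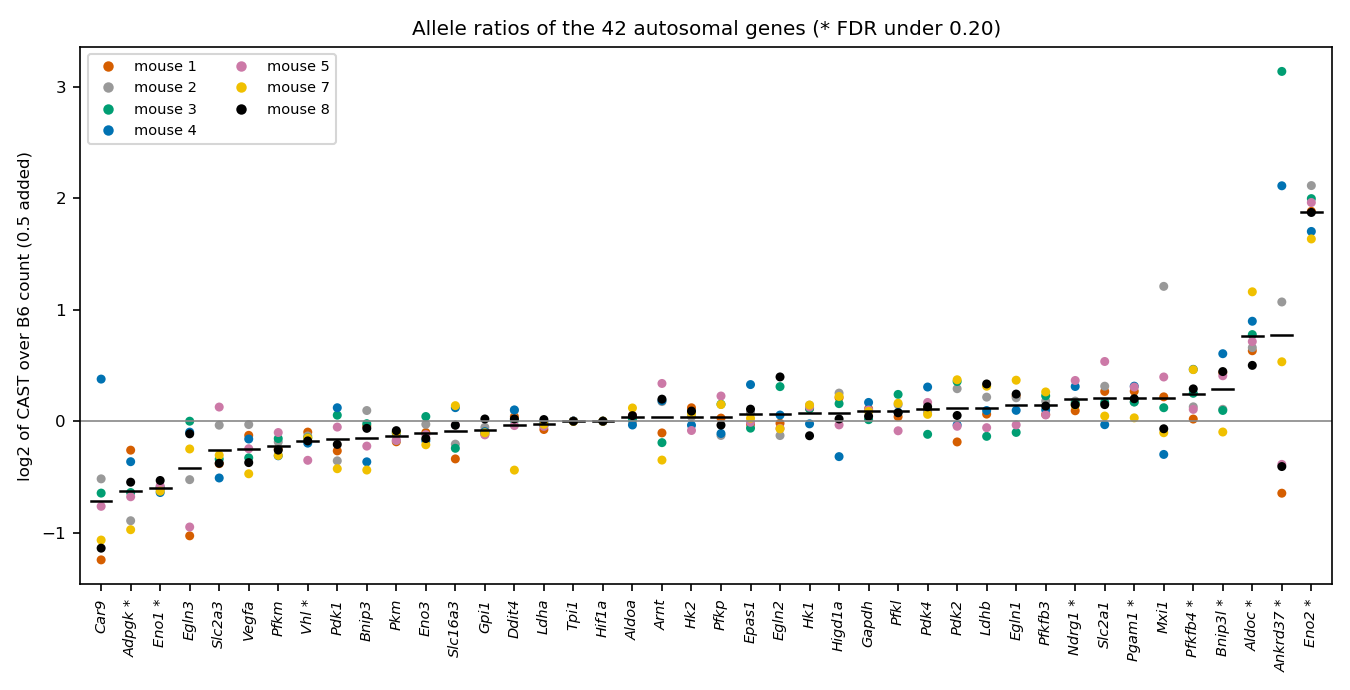
log2 ratio of CAST over B6 counts (0.5 added to each) for the 42 autosomal genes, with 1 point per mouse and a bar at the mean, genes in ascending order of the mean. An asterisk marks the 10 genes called at an FDR under 0.20 without the replicate block. Eno2 (mean 1.88) lies apart at the right, Hif1a lies at 0 in every mouse, and the points of Ankrd37 spread from -0.65 to 3.14.

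Adpgk had 609 to 1564 B6 counts per mouse (median 813) and 309.96 to 977 CAST counts (median 522). The B6 allele was higher in each of the 7 mice, with a B6 share from 54.5% in mouse 1 through 60.9% in mouse 3 to 66.3% in mouse 7. The mean log2 ratio of CAST over B6 was -0.62 ± 0.26 (SD, n = 7), with p = 0.0156 in an exact two-sided permutation of signs, the smallest value 7 mice allow. In edgeR the log2 fold change was -0.61 with an FDR of 5.9e-06. All Adpgk totals were whole numbers, and no same-strand copy of the gene with at least 95% identity over 200 bases was found. On the opposite strand, 247 bases matched Slc25a12 at 99.6% identity.

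Pkm starts 332 kb past the end of Adpgk. It had 7243 to 22334 B6 counts and 6750 to 19831 CAST counts, and the B6 share was 51.5% to 53.2%. The log2 ratio was -0.13 ± 0.042 (SD, n = 7), the B6 allele being slightly higher in all 7 mice. The difference was not called without the block (log2 fold change -0.11, FDR = 0.652). With the block it was called, at an FDR of 6.1e-11 in the likelihood-ratio test and of 0.0015 in the quasi-likelihood test.

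Eno2 and Aldoc, the neuronal enolase and the brain aldolase, carried the largest of the called differences that held in every mouse. Eno2 had 27.3 to 55.8 B6 counts (median 43.9) and 85.7 to 207 CAST counts (median 185), so the counts of the alleles did not overlap. Its log2 ratio was 1.88 ± 0.17 (SD, n = 7), from 1.63 to 2.11, with an FDR of 5.1e-38 in edgeR. Aldoc had 73.4 to 192 B6 counts (median 164) and 165 to 311 CAST counts (median 276), with a log2 ratio of 0.76 ± 0.21 and an FDR of 0.00017. Within each mouse the CAST allele of Aldoc was the higher, by the least in mouse 8 and the most in mouse 7. Neither gene had a near-identical copy among the transcripts searched. Both are minor isozymes here, and the log2 fold change of the major aldolase gene Aldoa was 0.05 (FDR = 0.884).

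**Figure D4:**
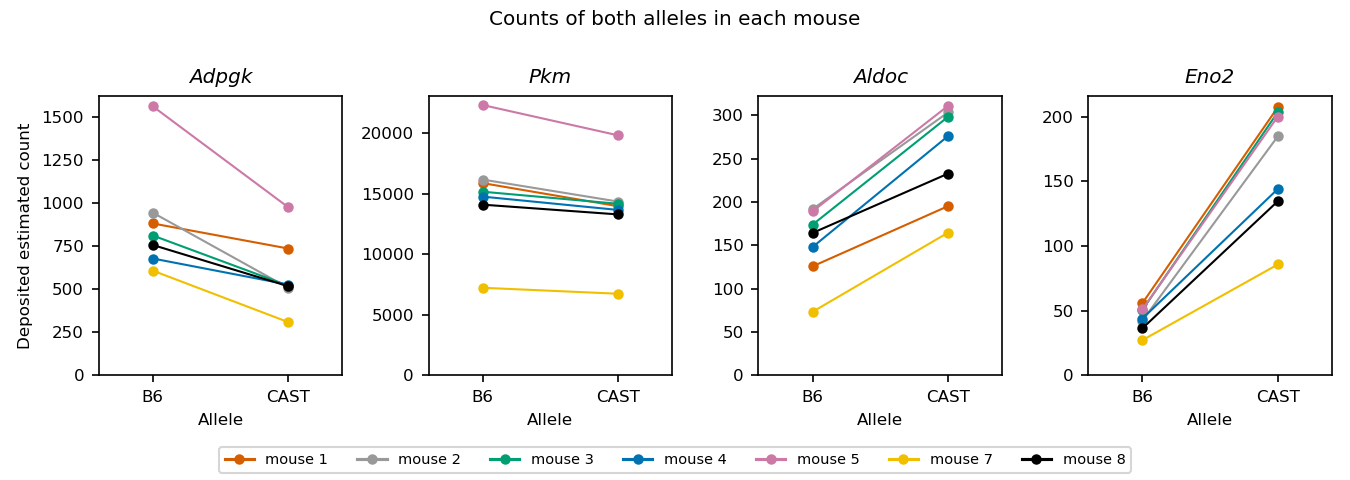
Deposited estimated counts of the B6 and the CAST allele of Adpgk, Pkm, Aldoc and Eno2, with 1 line per mouse and each axis from 0. The B6 point is the higher in all 7 mice for Adpgk and Pkm, and the CAST point for Aldoc and Eno2.

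Eno1 had 4159 to 11788 B6 counts (median 7569) and 2692 to 7884 CAST counts (median 5026). The B6 share was nearly the same in every mouse, 59.1% to 60.9%, and the log2 ratio was -0.60 ± 0.035 (FDR = 0.0016). Eno1 shares nearly all of its sequence with Eno1b, whose transcript aligned to Eno1 over 1736 bases at 99.5% identity, and Eno1b had a mean of 3607 counts on B6 and 3.99 on CAST. Totals of Eno1 were not whole numbers in any of the 7 mice, which marks reads divided between genes. With the counts of Eno1b and of the pseudogene Gm4735 added to Eno1, the sums were 11356 ± 3312 on B6 and 5084 ± 1529 on CAST, a log2 ratio of -1.16 ± 0.034. How the reads were divided between Eno1 and Eno1b on each allele cannot be told from gene counts.

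Smaller called differences belonged to Pgam1, Pfkfb4, Ndrg1 and Vhl. Pgam1 had log2 ratios of 0.03 to 0.31 (median 0.20, FDR = 0.128), and the call was lost without mouse 2 (FDR = 0.207) or mouse 5 (FDR = 0.248). Its pseudogene Pgam1-ps2 had 39.3 counts on B6 and 0.191 on CAST, and adding both pseudogene copies to Pgam1 gave 0.19 ± 0.099. Pfkfb4 had log2 ratios of 0.02 to 0.47 (median 0.25, FDR = 0.0593), with mice 4 and 7 highest. Ndrg1, a gene induced by low oxygen and by differentiation, had ratios of 0.09 to 0.37 (median 0.16, FDR = 0.0304), with the CAST allele higher in all 7 mice. Vhl had ratios of -0.35 to -0.10 (median -0.15, FDR = 0.15), and mouse 5 alone was below -0.20. The Vhl call was lost without mouse 2 (FDR = 0.201), 3 (0.202), 5 (0.389), 7 (0.235) or 8 (0.272).

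The other 2 called genes differed in direction between mice. Bnip3l, a mitophagy receptor gene related to Bnip3, had ratios of -0.10 to 0.61 (median 0.41, FDR = 0.0282) and was higher on CAST in 6 of 7 mice. Its pseudogene Bnip3l-ps had 59.3 ± 50.8 counts on CAST and 0.331 on B6, and the sum of both genes gave a log2 ratio of 0.43 ± 0.26. Ankrd37 rested on 3.17 to 23.3 B6 counts and 8.96 to 31.8 CAST counts, with ratios from -0.65 in mouse 1 to 3.14 in mouse 3. The CAST allele of Ankrd37 was higher in 4 of 7 mice, and the call was lost without mouse 2 (FDR = 0.247), 3 (0.381) or 4 (0.356). Ankrd37 overlaps Lrp2bp on the opposite strand over 259 bases, and whether the counting used strand is not given in the sources used here.

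The X-linked Pgk1, the phosphoglycerate kinase of somatic cells, had 2736 to 7835 B6 counts (median 5991) and 295 to 730.05 CAST counts (median 620.2), with a B6 share of 88.2% to 92.5%. X-linked genes together had a B6 share of 90.2% to 91.6%. If the mothers were B6, these males carried no CAST copy of Pgk1 itself. Its CAST counts then cannot be taken as expression of a CAST allele of Pgk1. The source of these counts was not tested, nor was how far similar counts enter the allele ratios of autosomal genes. The processed copies Pgk1-rs7 and Gm5537 match Pgk1 at 100% identity over 1255 and 1252 bases and had 744 and 98.003 counts on each allele, equal in all 7 mice. Equal counts on both alleles in every mouse were also given for Hif1a (763 on each), so no allele difference could be measured for it. For Tpi1, the triose phosphate isomerase gene, the alleles differed by at most 5.94 counts in any mouse, or 0.0549% of the total. Reads that do not separate the alleles are divided between them, so this near equality cannot be taken as a measured balance.

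Near-identical sequence was common in the group. Of the 43 genes, 11 had at least 1 other transcript on the same strand with 95% identity over 200 bases or more, and for 25 the total was fractional in 1 or more of the mice. Gapdh had 114 such copies, which together carried 13.96% as many counts as Gapdh itself, and adding them left the log2 ratio at 0.08 ± 0.042 (0.09 ± 0.049 for Gapdh alone). The Higd1a copy Gm9790 had 28.7 counts on CAST and 0.00804 on B6. Among the 18 genes with whole totals in every mouse, the called genes were Adpgk, Vhl, Aldoc and Pfkfb4.

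**Figure D5:**
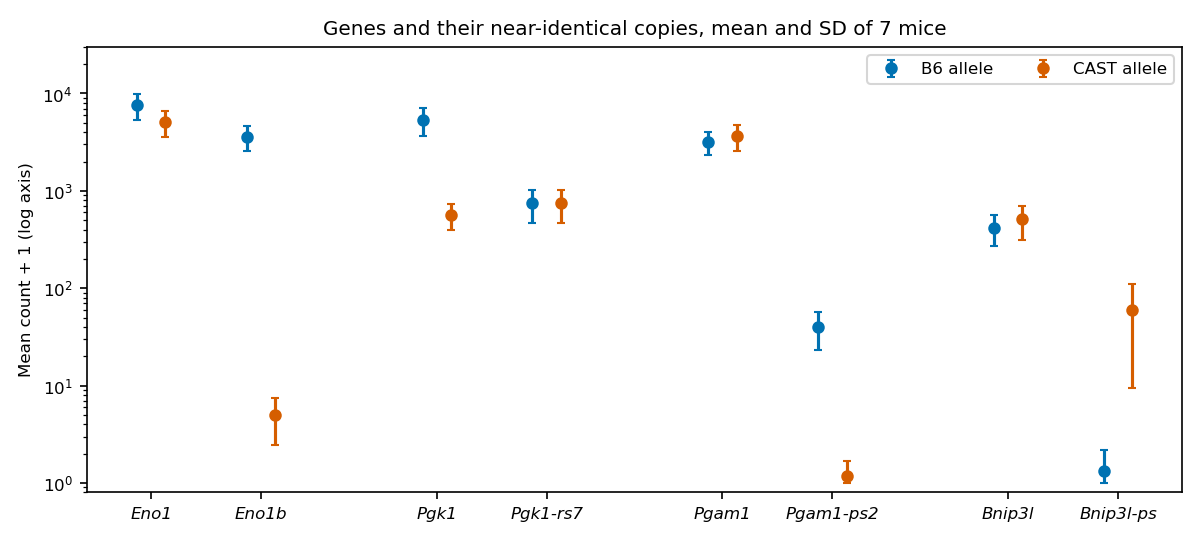
Mean count plus 1 on a log axis for Eno1, Pgk1, Pgam1 and Bnip3l and for the copy of each, on the B6 and on the CAST allele, with bars of 1 SD over 7 mice that stop at a count of 0. Eno1b (3607 on B6, 3.99 on CAST) and Pgam1-ps2 (39.3 and 0.191) have counts almost all on B6, Bnip3l-ps (0.331 and 59.3) almost all on CAST, and Pgk1-rs7 equal counts on both.

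The remaining 32 autosomal genes were not called, with log2 fold changes from -0.53 to 0.23 and a smallest FDR of 0.226, for Vegfa. They included all 3 lactate genes (Ldha -0.0068, Ldhb 0.14, Slc16a3 -0.05) and Hk1 and Hk2 (0.09 and 0.06). Egln3 and Car9 had few counts, a mean of 43.7 on B6 and 31.05 on CAST for Egln3 and of 24.4 and 16.1 for Car9. For Car9 the B6 allele was higher in 6 of 7 mice, and without mouse 4, the exception and the mouse with the highest Car9 level, the difference was called (log2 fold change -0.86, FDR = 0.0037). Leaving out mouse 4 also brought calls for Slc2a1 (FDR = 0.0569), Mxi1 (0.108), Vegfa (0.173) and Pdk1 (0.184). Other single mice mattered for Slc2a3 (FDR = 0.121 without mouse 5), Egln1 (0.139 without mouse 3, 0.177 without 5), Egln3 (0.173 without 3, 0.163 without 7), Pdk1 (0.199 without 3) and Mxi1 (0.161 without 7). By role, the calls fell on 4 of 9 autosomal genes from aldolase to pyruvate kinase, 3 of 9 targets, 1 of 7 regulators, 1 of 3 glucose kinases and 1 of 2 PFK regulators. These counts are small and stand beside 33.1% called of all tested autosomal genes. None of the 3 pyruvate dehydrogenase kinases and none of the 2 glucose transporters was called by this test, although 2 of the former and both of the latter were called with the replicate block in the likelihood-ratio test. In the blocked quasi-likelihood test Pdk4 was the 1 kinase gene called.

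Other genes of these pathways were counted by the same rule. Of 23 tested autosomal genes of glycolysis and pyruvate use outside the group, 5 were called, 2 higher on CAST and 3 higher on B6. Of 32 tested hypoxia genes outside the group, 9 were called, 3 higher on CAST and 6 higher on B6. The share called over all tested autosomal genes was 33.1%. The smallest FDR values belonged to Plod1, a collagen lysyl hydroxylase gene (2828 ± 781 B6 and 1792 ± 581 CAST counts, log2 fold change -0.66, FDR = 6.2e-08), and Ak4, a mitochondrial adenylate kinase gene (-0.40, FDR = 4.2e-05). Arnt2, a relative of Arnt, followed (-0.59, FDR = 6.4e-05), and then Mpc1, a subunit gene of the mitochondrial pyruvate carrier (-0.56, FDR = 0.00017). All 4 were higher on B6 in each of the 7 mice.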

How the data were processed

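Total RNA from tibial growth plates of 7 mice was sequenced after depletion of ribosomal RNA. The authors used Bowtie to align reads to both strains' transcripts jointly (mm10), allowing at most 3 mismatches, and the deposited values are estimated counts per gene and allele from EMASE, not normalized and not always whole. SAMtools is also named in the submitters' processing notes. Reads that do not separate the alleles are divided between them, so the number of informative reads is unknown and no counting interval is given.

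Values below 1e-06 were set to 0, and the 20020 genes above 0 in every mouse were tested. Counts were rounded and compared with edgeR 4.0.16 (R 4.3.3, limma 3.58.1), with TMM factors, estimateDisp, glmFit and glmLRT, and called at an FDR under 0.20. The filter, glmFit, glmLRT and the threshold follow the study, whose methods state no normalization or dispersion setting. The study reported a much larger FDR for Adpgk than the one found here, so the calls of the 2 fits are not interchangeable. Levels are CPM of the totals with TMM factors, per kb of the exon union of GENCODE M21, which holds 42462 of the 43346 identifiers. The log2 ratios use a pseudocount of 0.5. A total counts as whole within 1e-04. Copies were found by aligning GENCODE transcripts with megablast. Plots and tables used Python 3.11.15. The fit without the block was run on simulated counts. In these the alleles of a mouse were drawn independently and no reads were divided, unlike in the data. The difference in Adpgk was taken from the study's list of variants and read from GENCODE transcripts.

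The members and gene lists were chosen with earlier results of these data known. Values in every mouse were described for Adpgk, Pkm, called genes that agreed in direction in 7 mice, the 3 highest and 3 lowest genes, and genes with 1 mouse apart. Of other pathway genes at most 4 were named, and copies by a fixed naming pattern, while Gm4735, Gm5537 and Gm9790, Bnip3l, Ankrd37 and the genes that gained a call were named after their values were seen. Both alleles come from the same animal, and deviations of the 2 alleles of a mouse from the allele means correlated with r of 0.31 to 0.62 over 9632 genes, and the highest r of a B6 allele with the CAST allele of another mouse was 0.0957 to 0.351. For mouse 7 that value (0.348) was above its own (0.31), and the pairing rests on the shared animal. Permutation p-values measure the spread of ratios within mice over these 7 mice. The FDR of the main fit, which has no mouse term, rests on the spread between mice within each allele. Alternatives were DESeq2 1.42.0, the quasi-likelihood test, other filters, library sizes and gene sets, the replicate block, other lengths, and each mouse left out. No 2 libraries agreed within sampling noise.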

Additional observations from a re-analysis of the deposited data

Results flagged for a closer look

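In 85 sets of 7 values, the allele ratio or level of each gene over the mice, 1 mouse stood apart from the other 6 by Dixon's ratio in 8 sets. Chance alone is expected to give about 1 in 20 sets, or 4.25. Mouse 4 was the one apart in 5 of the 8. Its levels were 156 CPM for Pfkl (other mice 85.1 to 112), 332 for Pgam1 (211 to 260.2), 740.5 for Eno1 (345 to 509), 146 for Slc16a3 (65.9 to 80.5) and 3.12 for Car9 (0.896 to 1.78). With the deposited totals as library sizes Pfkl and Slc16a3 were past the critical value, and with Rn7s1, Rn7s2 and Rn7sk left out of the totals Slc16a3 was and Pfkl was not. Ldhb stood apart in mouse 8 at 28.2 CPM (20.9 to 22.2), also with those RNAs left out and not with the deposited totals.

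The log2 allele ratio of Vhl was -0.35 in mouse 5 and -0.20 to -0.10 in the others. That of Ddit4 was -0.44 in mouse 7, from 471 B6 and 347 CAST counts, and -0.04 to 0.10 in the others.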

How the results depend on the processing

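Of 42 autosomal genes, 10 were called. The shares given below for the blocked fits include genes with fewer counts than any of these 42 needed to pass the filter of 10 counts. The count was 27 with the mouse as a replicate block in the likelihood-ratio test (beside 44.4% of all autosomal genes) and 25 with the block in the quasi-likelihood test (39.4%), 6 at an FDR under 0.05, and 4 among the 18 genes with whole-number totals, where genome-wide calls went from 6961 of 20020 to 3501 of 10144. The other 7 settings gave 9 to 12, beside 25.4% to 35.3% of autosomal genes, and leaving out 1 mouse gave 7 to 14, beside 29.2% to 32.0%. Adpgk stayed called, higher on B6, under all 17 alternatives, with log2 fold changes of -0.66 to -0.54 and an FDR of at most 0.0031. No called allele difference changed direction under any setting. The summed level of the 43 genes was 6844 CPM, and 8542 with Rn7s1, Rn7s2 and Rn7sk left out of the totals, which follows from the smaller totals. Without 1 mouse it was 6592 (without mouse 4) to 6961. Of 15 isozyme pairs 13 differed, against 12 per kb of longest transcript and 11 without length scaling. The log2 ratio of Eno3 to Eno1 turned to -0.998 and -1.37 under these, and without length scaling those of Pdk2 to Pdk1, Egln2 to Egln1 and Bnip3 to Bnip3l turned to -0.98, -0.21 and -0.37. Depth limits Ankrd37, Car9 and Egln3 most, with means under 50 counts per allele. The filter that keeps values below 1e-06 and the added Eno1b counts were chosen after seeing the data.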
